A study of Homo sapiens with 6 samples.

Results

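The transcripts described here are 9 genes of osmolyte transport and cell volume control, of 19977 genes listed in each library: NFAT5, SLC5A3, SLC6A6, SLC6A12, AKR1B1, SLC38A2, LRRC8A, SLC12A2 and SGK1. They were chosen for their known function, because a dissolved polymer such as polyethylene glycol (PEG) may alter the osmolality of a medium. Earlier results of these data were known when they were chosen. Osmolality itself is not among the values analysed here. Polyadenylated RNA was sequenced from NCRM-1, a wild type human induced pluripotent stem cell (iPSC) line made from cord blood cells, grown as aggregates in vertical wheel bioreactors. All 6 libraries come from 4 days of culture in E8, a defined medium for pluripotent cells, after seeding of single cells with a ROCK inhibitor and replacement of 50% of the medium on day 2. In 3 libraries E8 carried PEG at 10 mg/ml together with heparin sodium salt at 0.1 µg/ml (named PEG and HS), and in 3 it carried neither (E8 control). PEG and heparin were given together, so their effects cannot be told apart. The labels name 1 vessel for each medium and do not say whether replicates came from separate cultures, so vessel and medium cannot be told apart either, and each p measures the spread between these samples, which may be technical. One label conflict remains, since the protocol text of the control libraries also mentions the additives, and the treatment entry of each library was followed.

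Cells in a concentrated medium lose water. They first take up ions, with chloride entering through cotransporters such as SLC12A2, and later replace these ions by small organic solutes (inositol, taurine, betaine, sorbitol, neutral amino acids). The transcription factor NFAT5 is activated by hypertonicity and raises the transcripts of the carriers and enzymes that gather these solutes. In swollen cells the reverse occurs, as anion channels built on LRRC8A release chloride and organic osmolytes.

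Library depth was 26991279 to 36185138 counts on genes. Levels are given as CPM (counts relative to the TMM-scaled library size, not corrected for length), and the 16505 genes with at least 10 counts in all were tested with edgeR (quasi-likelihood). A gene is called at a Benjamini-Hochberg adjusted p under 0.05. Log2 fold changes above 0 mean more transcript in PEG and HS. All 8 pluripotency markers checked were present (3 called higher, 3 lower). The lowest was NANOG, called higher, at 185 ± 1.76 CPM (SD, n = 3) with PEG and HS, beside 126 ± 0.610 CPM in the controls. POU5F1 and L1TD1 were called higher too (log2 fold changes 0.23 and 0.36). SOX2 was called lower, at 273 ± 3.92 against 412 ± 11.8 CPM (log2 fold change -0.59), as were LIN28A (-0.30) and SALL4 (-0.25). Of 10 neuroectoderm markers, 9 were called lower in PEG and HS, with a median log2 fold change of -1.26 over the 10. Their sum ranged from 583 to 623 CPM there and from 804 to 837 CPM in E8 control, with no marker at 0. This sum follows mainly NES, by far the most abundant per kb of exon (386 in PEG and HS, 447 in E8 control). OTX2, by the same measure, was at 21.6 and 90.5. Of 7 trophectoderm and amnion markers, 5 were tested and 3 called lower. The 7 summed to 4.72 to 4.91 against 13.5 to 14.0 CPM, with CGA at 0 in each library. Of 7 mesoderm markers, 0 were called higher and 1 lower by edgeR (summed 6.11 to 6.30 against 6.31 to 7.87 CPM), and likewise by DESeq2. At an unadjusted edgeR p under 0.05, 2 were higher and 1 lower, and the median log2 fold change of the 7 was 0.24. Of 6 endoderm markers, 4 were tested and 0 called by edgeR (1 was lower at an unadjusted p under 0.05, and 0 were called by DESeq2). The 6 summed to 3.47 to 4.03 CPM in PEG and HS and 4.71 to 5.19 CPM in E8 control. The part of these markers in the results below was not tested, and in bulk RNA fewer cells of a type and less RNA per cell cannot be told apart.

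All 9 genes had enough counts to be tested, and 4 were called, 3 higher (SGK1, LRRC8A and NFAT5) and 1 lower (SLC6A6). Over all genes tested, 25.3% were called, 12.2% higher and 13.1% lower. The differences were small, from a rise of 28.8% in SGK1 to a fall of 10.5% in SLC6A6 among called genes. In 5 of the 9, 4 higher and 1 lower, no PEG and HS library fell within the range of the controls, which was the case in 39.3% of all genes tested (19.5% higher and 19.8% lower). The median log2 fold change of the 9 was 0.045, beside 0.0031 over all genes tested, and the median absolute log2 fold change was 0.16, beside 0.12. The transcripts of inositol carrier SLC5A3, aldose reductase AKR1B1 and amino acid carrier SLC38A2, each known to rise in hypertonic medium, were not called and lay in overlapping ranges.

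**Figure D1:**
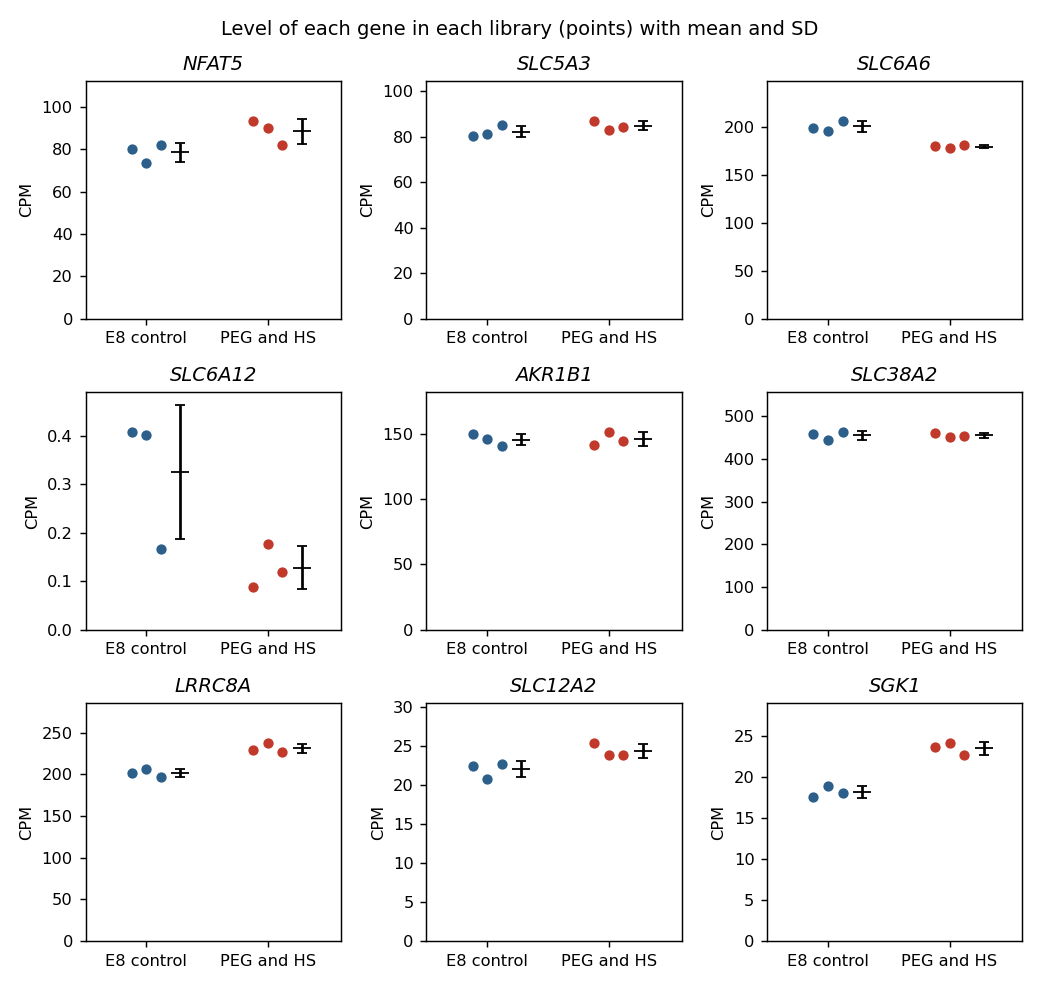
Level in CPM (vertical axes, from 0) of the 9 genes in the 3 E8 control (blue) and 3 PEG and HS (red) libraries, with mean and SD beside the points. The PEG and HS points lie clearly above the E8 control points for SGK1 and LRRC8A and below them for SLC6A6, while those of AKR1B1 and SLC38A2 cover the same range.

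NFAT5 (ENSG00000102908, chromosome 16, 69565094 to 69704666 of GRCh38, plus strand) encodes the transcription factor itself, whose activity is largely set by its entry into the nucleus, which transcript counts do not show. The PEG and HS replicates had 93.6, 90.3 and 82.00 CPM and the E8 control replicates 80.1, 73.7 and 81.97 CPM. The lowest PEG and HS library and the highest E8 control library were therefore nearly equal, although the ranges did not cross. The mean was 88.6 ± 5.98 CPM (SD, n = 3) against 78.6 ± 4.35 CPM (SD, n = 3), a log2 fold change of 0.17 (SE 0.049, edgeR adjusted p = 0.0167). This call was lost when PEG and HS replicate 1 (adjusted p = 0.105), PEG and HS replicate 2 (0.0559) or E8 control replicate 2 (0.0944) was left out, with log2 fold changes of 0.13, 0.16 and 0.13, and over all 12 alternatives the edgeR or DESeq2 adjusted p ranged from 0.00183 to 0.105. Of its exon bases, 7.83% are shared with a long noncoding RNA on the same strand that is no row of the count tables.

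Of the 4 genes that NFAT5 is best known to raise, SLC6A6 was called lower, SLC5A3 and AKR1B1 were not called, and SLC6A12 had too few counts to judge. With 25.3% of all genes called, 1 call among 4 genes is no more than the background. SLC6A6 (ENSG00000131389, chromosome 3, 14402576 to 14489349, plus strand), the sodium-dependent taurine carrier, had 180.6, 178.4 and 181.3 CPM in PEG and HS, while E8 control had 199.98, 196 and 207 CPM. Every PEG and HS library lay below every E8 control library. The log2 fold change was -0.16 (SE 0.029, edgeR adjusted p = 0.000724), and it was called under each of the 12 alternatives, with an adjusted p of 8.37e-06 to 0.00486. An exon of GRIP2, on the other strand, covers 2.94% of its exon bases. GRIP2 rose (log2 fold change 0.42, SE 0.087, adjusted p = 0.00229), and it had 8.88 ± 0.684 CPM in PEG and HS.

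SLC5A3 (ENSG00000198743, chromosome 21, 34073578 to 34106260, plus strand), which carries myo-inositol with sodium, had 87.1, 83.1 and 84.5 CPM in PEG and HS, beside 80.5, 81.2 and 85.1 CPM in E8 control. The ranges overlapped, with a log2 fold change of 0.045 (SE 0.034, edgeR adjusted p = 0.381). The 95% interval of the difference ran from -1.92% to 8.48%. SLC5A3 overlaps MRPS6, a mitochondrial ribosomal protein gene on the same strand, in 2.29% of its exon bases, and MRPS6 was not called either (55.1 ± 2.43 against 53.8 ± 0.904 CPM, adjusted p = 0.556).

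AKR1B1 (ENSG00000085662, chromosome 7, 134442356 to 134459284, minus strand) encodes aldose reductase, which makes sorbitol from glucose. PEG and HS gave 141, 151.5 and 145 CPM, and E8 control gave 149.5, 146 and 141 CPM. The values of the media were interleaved (log2 fold change 0.0039, SE 0.033, edgeR adjusted p = 0.951), and the 95% interval of the difference was -4.56% to 5.35%. Over the 12 alternatives its log2 fold change lay between -0.024 and 0.026. AKR1B1 shares 13.9% of its 31-base words with transcripts of other genes, the largest share of the 9 genes.

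SLC6A12 (ENSG00000111181, chromosome 12, 190077 to 214570, minus strand), the betaine and GABA carrier of kidney and liver, was barely detected, with 3, 5 and 4 counts in PEG and HS and 11, 13 and 6 in E8 control. In CPM these are 0.0890, 0.177 and 0.118 against 0.408, 0.400 and 0.166, and E8 control replicate 3 lay among the PEG and HS values. The log2 fold change was -1.31 (SE 0.55, edgeR adjusted p = 0.0988) and was not called. Without E8 control replicate 3 the log2 fold change was -1.65, with an edgeR adjusted p of 0.0414, so that 1 library decides this call. At this depth the betaine carrier has too few counts to measure.

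SLC38A2 (ENSG00000134294, chromosome 12, 46358188 to 46372773, minus strand) encodes a system A carrier of small neutral amino acids, which cells raise in hypertonic medium and on amino acid shortage. It was the most counted of the 9 genes, with 461, 451 and 455 CPM under PEG and HS, where E8 control had 458, 444.5 and 464 CPM. The PEG and HS values lay inside the range of the controls. The log2 fold change was 0.00095 (SE 0.026, edgeR adjusted p = 0.988), with a 95% interval of the difference of -3.71% to 3.99%.

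NFAT5 binds an element with the core letters TGGAAA. These letters were searched on both strands in the RefSeq promoters (GRCh38.p14), which run from 250 bases before to 50 after the start. Of 35116 promoters of all genes, 20.7% hold them. Entries were found for 6 of the 9 genes (10 promoters), and not for NFAT5, SLC6A6 and SLC6A12. SLC38A2 was the 1 gene with a match, TTTCCA on the strand printed, from base 33 after its start, while the promoters of SLC5A3, AKR1B1, LRRC8A, SLC12A2 and SGK1 had none in these windows. The osmolyte genes with an entry are shown so that these windows can be compared, each on the strand of its gene, with capitals marking the match. They lie at chr21:34073328-34073627 (SLC5A3, plus strand), at chr7:134459051-134459350 (AKR1B1, minus strand, 1 of its 2 listed starts) and at chr12:46372724-46373023 (SLC38A2, minus strand).
SLC5A3: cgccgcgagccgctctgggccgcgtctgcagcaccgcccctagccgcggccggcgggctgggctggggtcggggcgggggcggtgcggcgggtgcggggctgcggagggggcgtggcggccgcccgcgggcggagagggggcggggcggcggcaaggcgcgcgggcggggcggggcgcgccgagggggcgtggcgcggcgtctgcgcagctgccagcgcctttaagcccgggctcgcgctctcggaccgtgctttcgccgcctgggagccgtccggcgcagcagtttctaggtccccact
AKR1B1: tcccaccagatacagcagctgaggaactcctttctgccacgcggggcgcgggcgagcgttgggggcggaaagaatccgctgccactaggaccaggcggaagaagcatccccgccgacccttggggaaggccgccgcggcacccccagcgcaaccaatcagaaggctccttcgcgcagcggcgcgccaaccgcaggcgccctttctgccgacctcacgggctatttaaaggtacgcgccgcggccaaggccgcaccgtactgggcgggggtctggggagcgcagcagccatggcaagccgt
SLC38A2: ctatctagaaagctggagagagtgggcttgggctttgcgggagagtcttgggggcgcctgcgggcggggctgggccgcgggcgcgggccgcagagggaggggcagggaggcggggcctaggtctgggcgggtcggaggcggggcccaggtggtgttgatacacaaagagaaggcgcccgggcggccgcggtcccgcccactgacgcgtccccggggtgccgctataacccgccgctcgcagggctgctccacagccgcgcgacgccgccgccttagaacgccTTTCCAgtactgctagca
A match of 6 letters is a description of the window, not a binding site. Sequence outside these windows was not searched, so a gene without a match here may still hold the element elsewhere.

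Of the 3 genes of ion and volume regulation, LRRC8A and SGK1 rose and SLC12A2 did not pass the test. LRRC8A (ENSG00000136802, chromosome 9, 128882133 to 128918039, plus strand), the obligatory subunit of the volume-regulated anion channel, had 229, 238 and 227 CPM in the PEG and HS replicates, while the E8 control replicates had 202, 206 and 197 CPM. All PEG and HS libraries lay above all E8 control libraries. The mean rose from 202 ± 4.63 to 231 ± 5.81 CPM (SD, n = 3), a difference of 14.6% with a 95% interval of 9.69% to 19.6% (log2 fold change 0.20, SE 0.029, edgeR adjusted p = 0.000139). It was called under each of the 12 alternatives, with an adjusted p of at most 0.00144. Of its 31-base words, 0.0385% occur in transcripts of other genes.

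SLC12A2 (ENSG00000064651, chromosome 5, 128083766 to 128189677, plus strand), the sodium, potassium and chloride cotransporter NKCC1 that loads shrunken cells with ions, had 25.4, 23.85 and 23.9 CPM in PEG and HS, beside 22.4, 20.8 and 22.7 CPM in the controls. The ranges did not overlap, and the log2 fold change was 0.15 (SE 0.054), yet the gene missed the threshold (edgeR adjusted p = 0.0564). Under scaling by library size alone it passed, with an adjusted p of 0.0468, and over the other alternatives it did not pass.

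SGK1 (ENSG00000118515, chromosome 6, 134169248 to 134318112, minus strand) encodes a kinase that is induced by cell shrinkage, serum and glucocorticoids and acts on ion channels and carriers. The PEG and HS replicates had 23.7, 24.2 and 22.7 CPM, and the E8 control replicates 17.6, 19.0 and 18.1 CPM. No library of one medium came near those of the other. SGK1 rose the most of the 9 genes, by 28.8% with a 95% interval of 18.9% to 39.6% (log2 fold change 0.37, SE 0.054, edgeR adjusted p = 0.000132), and 80.7% of all genes tested changed less in absolute size. It was called under each of the 12 alternatives, with log2 fold changes of 0.34 to 0.39. Outside the lists used here, the 2 genes whose log2 CPM followed that of SGK1 most closely over the 6 libraries, among 9957 genes with a mean of at least 10 CPM, were ADAMTS8 (Pearson's r 0.997, 18.7 against 13.7 CPM) and LSM12 (0.997, 124 against 114.5 CPM). These r are descriptions, and the 6 points share the difference between the media.

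**Figure D2:**
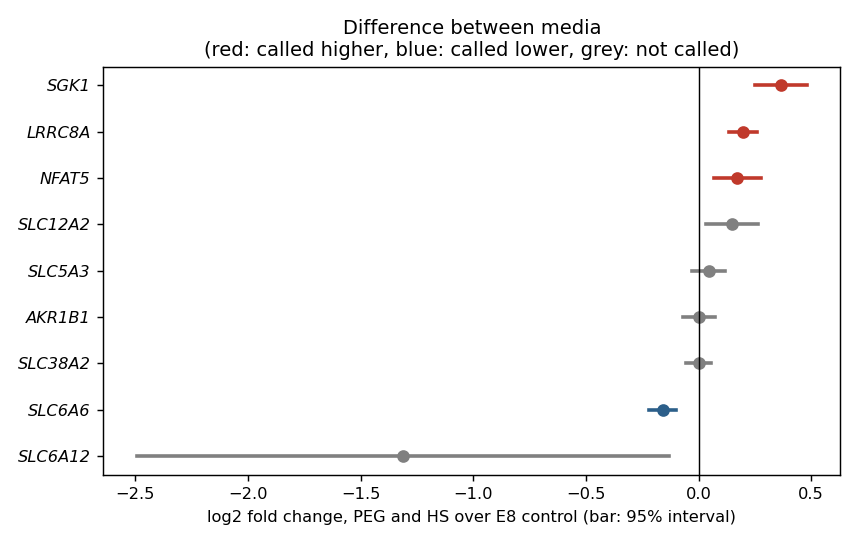
Log2 fold change of PEG and HS over E8 control (horizontal axis) for the 9 genes, with 95% intervals before any adjustment for the number of genes tested. SGK1, LRRC8A and NFAT5 (red) were called higher and SLC6A6 (blue) lower, and the long bar of SLC6A12 comes from its 3 to 13 counts per library.

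Levels were also taken per exon length (counts per kb of exon, scaled to the same total in each library). This length merges all annotated exons of a gene. It can exceed that of the transcripts present, and the order between genes depends on it. In E8 control, SLC38A2 was highest at 271 ± 7.66 (SD, n = 3), then AKR1B1 at 154 ± 4.39, LRRC8A at 150.0 ± 2.51 and SLC6A6 at 94.4 ± 3.19. Below them were SLC5A3 at 27.6 ± 0.961, NFAT5 at 15.02 ± 0.927, SLC12A2 at 8.00 ± 0.426, SGK1 at 7.09 ± 0.242 and SLC6A12 at 0.236 ± 0.0993. AKR1B1 and LRRC8A overlapped there, and the other neighbours in this order did not. In PEG and HS the order changed at both of its close pairs. LRRC8A, at 175 ± 3.86, lay above AKR1B1, at 158 ± 5.37, without overlap. SGK1, at 9.34 ± 0.265, came level with SLC12A2, at 9.05 ± 0.314, and these overlapped.

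**Figure D3:**
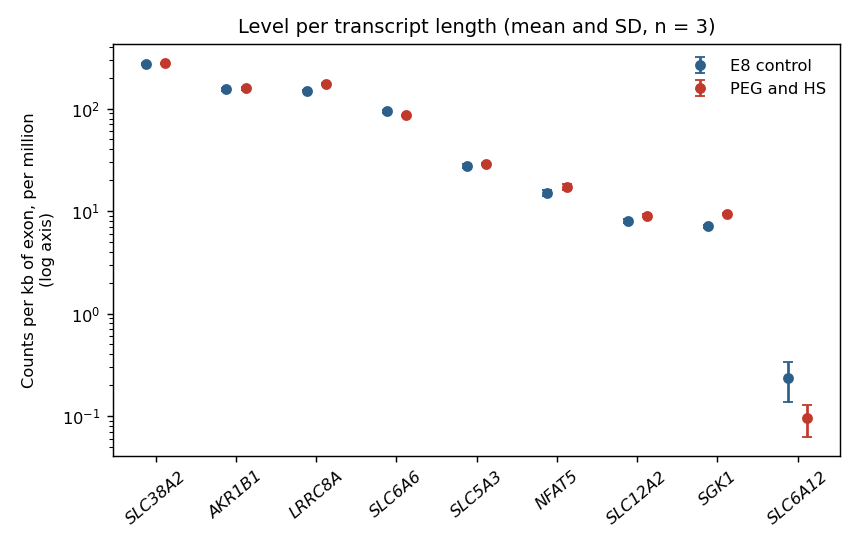
Level per merged exon length (log axis, counts per kb of exon scaled to the same total) of the 9 genes in E8 control (blue) and PEG and HS (red). Mean and SD of 3 libraries are shown, ordered by the level in E8 control. The genes span from 271 for SLC38A2 to 0.236 for SLC6A12 in E8 control, a range far wider than any difference between media.

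Another 150 genes of the same pathways were read from the same fit in 11 lists. Of the 143 that were tested, 20 were called higher and 18 lower, together 26.6%, close to the 25.3% of all genes, and 2 of the called genes changed by more than 1.5-fold.

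The LRRC8 family and other swelling channels had 3 genes called higher and 2 lower of 15 tested (median log2 fold change -0.064). LRRC8B and LRRC8D, subunits that pair with LRRC8A, rose with it. LRRC8B had 64.1, 62.9 and 62.5 CPM in PEG and HS, while the controls had 53.0, 53.1 and 52.8 CPM (log2 fold change 0.25, SE 0.034, edgeR adjusted p = 4.16e-05). LRRC8D was at 72.5 ± 1.89 and 66.5 ± 2.30 CPM (log2 fold change 0.13, adjusted p = 0.0191), a call that was lost without PEG and HS replicate 1 (0.0915), E8 control replicate 1 (0.0782) or E8 control replicate 3 (0.0779). LRRC8C and LRRC8E had means under 6 CPM and were not called (log2 fold changes -0.31 and -0.20). The LRRC8C libraries of PEG and HS all lay below the controls, and it passed as lower with the replicate number as a block (edgeR adjusted p = 0.0326) and without PEG and HS replicate 1 (0.0274, log2 fold change -0.43). Added over the 5 subunits per length, the family was at 269 ± 2.51 in PEG and HS and 233 ± 3.79 in E8 control without overlap, and LRRC8A made 65.2% and 64.4% of it. PIEZO1, a stretch-gated channel, was called higher (log2 fold change 0.12, adjusted p = 0.0329). The potassium channel KCNMA1 (log2 fold change -0.47, adjusted p = 0.00976) and the chloride channel ANO1 (-0.28, adjusted p = 0.0383) were called lower, both from means under 6 CPM. PIEZO1 was lost at 3 of the 6 libraries left out, and ANO1 with DESeq2 and at 5 of the 6. The most counted channel genes that were not called were CLNS1A and TRPM7 (log2 fold changes -0.022 and -0.075).

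Among the other cotransporters and exchangers, 2 were called higher and 2 lower of 14 tested (median log2 fold change -0.038). SLC12A4, the potassium chloride cotransporter KCC1 through which swollen cells lose ions, had the largest rise among the 38 called genes, with 44.1 ± 2.32 CPM in PEG and HS and 31.5 ± 2.41 in the controls (log2 fold change 0.49, SE 0.055, edgeR adjusted p = 8.89e-06). Its PEG and HS replicates had 43.3, 46.7 and 42.3 CPM and its controls 34.0, 29.2 and 31.1 CPM, and the ranges did not overlap. The exchanger SLC4A2 was not called, and SLC12A7, the most abundant of the list, was at 87.0 ± 7.49 and 85.5 ± 2.06 CPM (adjusted p = 0.782). The anion exchanger SLC26A6 was called higher (log2 fold change 0.23, adjusted p = 0.000814). SLC12A1 (log2 fold change -0.72, adjusted p = 0.0153) and SLC12A8 (-0.23, adjusted p = 0.0336) were called lower, the former from a mean under 2 CPM, and the call was lost for SLC12A1 without PEG and HS replicate 3 (0.0579) or E8 control replicate 3 (0.0749) and for SLC12A8 with DESeq2 and at 4 of the 6 libraries left out. Upstream of these transporters, the WNK kinase list had 2 called higher and 0 lower by edgeR of 11 tested (median log2 fold change -0.010), with 1 lower at an unadjusted p under 0.05 and 0 by DESeq2. WNK2 was at 147 ± 4.34 and 128 ± 2.18 CPM (log2 fold change 0.19, adjusted p = 0.000258), and KLHL3, which marks WNK kinases for breakdown, also rose (0.20, adjusted p = 0.0129, or 0.0665 without E8 control replicate 2). CUL3, of the same degradation pathway, was not called, and WNK1, the most abundant, was at 389.7 ± 2.84 and 392.5 ± 2.65 CPM (adjusted p = 0.807).

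Of 14 other carriers that can move organic osmolytes, 1 was called higher and 4 lower (median log2 fold change 0.0051). SLC6A8, the creatine carrier, fell, with 170 ± 4.12 CPM in PEG and HS and 224 ± 6.83 in the controls. Its log2 fold change was -0.40 (SE 0.031, edgeR adjusted p = 1.18e-07), and 19.8% of its 31-base words are shared with other genes. SLC36A4, an amino acid carrier (log2 fold change -0.37, adjusted p = 0.000448), and SLC44A1, a choline carrier (-0.25, adjusted p = 1.46e-05), fell as well. SLC38A4, the system A relative of SLC38A2, was called higher (0.25, adjusted p = 0.00928, or 0.0593 without PEG and HS replicate 1), whereas SLC38A1 was at 480.1 ± 8.44 and 479 ± 9.12 CPM (adjusted p = 0.942). The glycine carrier SLC6A9 was not called (log2 fold change -0.16, adjusted p = 0.0814), but it passed without PEG and HS replicate 2 (0.0113) and with the replicate number as a block (0.0316). Of 16 enzymes that make or break down osmolytes, 2 were called higher and 4 lower (median log2 fold change -0.0095). SORD, which turns sorbitol into fructose, rose, with 125 ± 1.83 CPM in PEG and HS and 107 ± 1.35 in the controls. Its log2 fold change was 0.23 (SE 0.029, edgeR adjusted p = 3.16e-05), and 19.9% of its 31-base words are shared with other genes. GPCPD1, which splits glycerophosphocholine, rose from 15.5 ± 0.598 to 20.2 ± 0.484 CPM (0.38, adjusted p = 0.000133). GDPD5, which splits the same osmolyte, was called lower (-0.36, adjusted p = 0.0158, or 0.0886 without PEG and HS replicate 1). PNPLA6, which forms it, was called lower too (-0.13, adjusted p = 0.00628). CHDH, which oxidises choline towards betaine, was called lower (-0.19, adjusted p = 0.0396), but not with DESeq2, with library size alone, or at 4 of the 6 libraries left out. AKR1A1, a relative of AKR1B1, was not called. ISYNA1, which makes inositol phosphate from glucose phosphate, was at 148 ± 3.57 and 140 ± 1.22 CPM and not called (adjusted p = 0.0565), and it passed with library size alone (0.0321) and with the replicate number as a block (0.0368).

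Of 13 tested genes reported to rise with hypertonicity, 2 were called higher and 0 lower by edgeR (median log2 fold change 0.035), with 1 lower at an unadjusted p under 0.05 and 0 by DESeq2. HSPH1, a heat shock protein, had 298 ± 11.2 CPM in PEG and HS and 246 ± 5.01 in the controls (log2 fold change 0.28, SE 0.031, edgeR adjusted p = 7.35e-06). HSPA1B was called higher (0.23, adjusted p = 4.7e-05) and its near-identical neighbour HSPA1A was not (-0.073, adjusted p = 0.155). Since 76.0% of the 31-base words of HSPA1A are shared, the split between them depends on how reads were counted, and together they were at 261 ± 8.74 and 242 ± 4.94 CPM without overlap. TNF and AQP2 had 0 counts in each library. Of 11 aquaporins 7 were tested and 0 were called by edgeR, 0 of them at an unadjusted p under 0.05 and 0 by DESeq2, and AQP3 and AQP11, the most abundant, had means under 1.5 CPM in both media (median log2 fold change 0.00018). Among 19 relatives, partners and upstream kinases of NFAT5, 3 were called higher and 2 lower (median log2 fold change 0.042). NFATC4, a calcium-regulated relative, fell from 58.1 ± 2.47 to 42.6 ± 0.193 CPM (-0.45, SE 0.040, adjusted p = 6.54e-07). RAC1, a small GTPase of the pathway to NFAT5, was called higher (0.14, adjusted p = 0.0016), as were NFATC3 (0.15, adjusted p = 0.0181) and MAP2K6 (0.11, adjusted p = 0.0279), and GSK3B was called lower (-0.10, adjusted p = 0.0342). Of these, NFATC3 was lost without PEG and HS replicate 3 or E8 control replicate 3. GSK3B was lost at 3 of the 6 libraries left out, and MAP2K6 at 4 of the 6 and with DESeq2. NFATC3 shares 19.9% of its 31-base words with other genes. The most abundant genes of this list, PARP1 and KPNB1, were not called.

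SGK1 shares regulators and inducers with other genes. Of 12 relatives, activators and substrates of SGK1, 2 were called higher and 2 lower (median log2 fold change 0.020). NDRG2, a substrate, fell, with 27.8 ± 1.13 CPM in PEG and HS and 37.0 ± 0.452 in the controls (log2 fold change -0.42, SE 0.045, edgeR adjusted p = 5.84e-06), and MAPKAP1, a part of the kinase complex that activates SGK1, rose (0.13, adjusted p = 0.00659). FOXO3 (0.14, adjusted p = 0.0303) and PDPK1 (-0.10, adjusted p = 0.0364) were called, each lost at 4 of the 6 libraries left out, PDPK1 also with DESeq2 and library size alone, and FOXO3 shares 46% and PDPK1 30.5% of its 31-base words with other genes. MTOR and NEDD4L were not called. Among 10 glucocorticoid responsive genes and receptors, PER1 was called higher (0.15, adjusted p = 0.0224) and the receptor NR3C1 lower (-0.30, adjusted p = 0.0024), with a median log2 fold change of -0.14. PER1 was lost at 3 of the 6 libraries left out, and FKBP5, the most abundant of this list, was at 73.7 ± 3.26 and 72.8 ± 2.81 CPM (adjusted p = 0.758), and NFKBIA was not called either. Among 13 genes of the amino acid response, which also acts on SLC38A2, 2 were called higher and 1 lower (median log2 fold change 0.021). ATF4, its transcription factor, was at 359 ± 5.27 and 350.0 ± 8.61 CPM (adjusted p = 0.36). DDIT4, a stress-induced inhibitor of mTORC1, fell from 30.6 ± 0.970 to 17.6 ± 0.853 CPM (-0.80, SE 0.053, adjusted p = 2.25e-08), the largest change among the 38 called genes. CEBPB (0.20, adjusted p = 0.0148) and PSAT1 (0.086, adjusted p = 0.033) were called higher. CEBPB was lost at 2 and PSAT1 at 5 of the 6 libraries left out, and PHGDH, the most abundant, was not called.

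**Figure D4:**
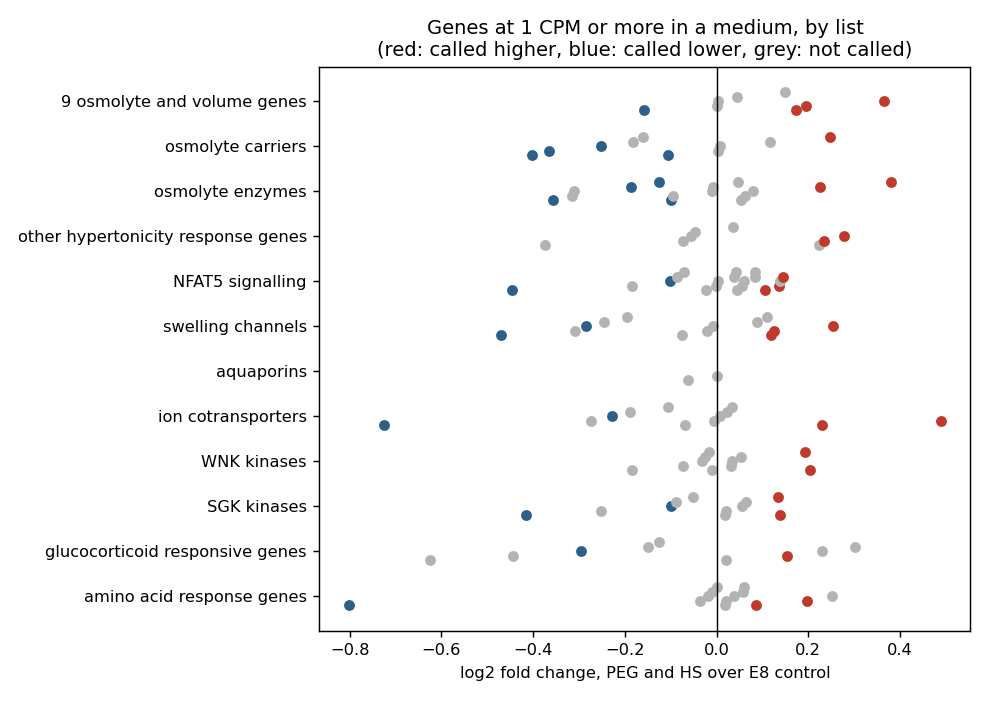
Log2 fold change of PEG and HS over E8 control (horizontal axis) for the genes that reach 1 CPM in a medium, by list (rows, where the vertical offset within a row carries no value). Called genes lie on both sides of 0 in most lists, with SLC12A4 farthest to the right and DDIT4 farthest to the left.

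**Figure D5:**
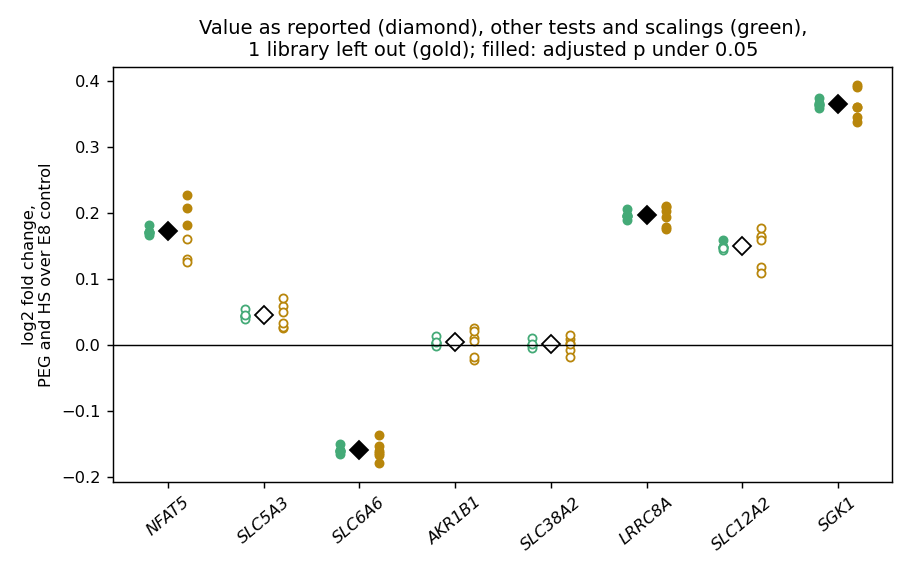
Log2 fold change (vertical axis) of 8 of the genes as reported (diamonds), under 6 other tests, scalings and filters (green) and with each of the 6 libraries left out (gold), filled where the adjusted p was under 0.05. SLC6A12 is left out for its scale. SGK1, LRRC8A and SLC6A6 are filled throughout, and NFAT5 is open at 3 gold points.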

How the data were processed

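Libraries were grouped by their treatment entries. The deposited values are raw counts per gene, 1 library per file, which the authors made with Trim Galore 0.6.7 and STAR 2.6.1 on GRCh38 in an nf-core pipeline. The counting tool, its annotation release, its strand setting and its handling of multimapping reads are not given in the sources used here, so overlapping or near-identical genes are uncertain. Symbols, coordinates and exon lengths came from GENCODE 44, which matched 19916 of 19977 identifiers and all genes of the lists. Genes with at least 10 counts over the 6 libraries were fitted with edgeR 4.0.16 in R 4.3.3 (TMM, glmQLFit and glmQLFTest without covariates), and p was adjusted after Benjamini and Hochberg across all 16505 genes. SEs were derived from the log2 fold change and F, and 95% intervals use the t quantile. The authors' DESeq2 test was run as an alternative (version 1.42.0), beside RLE factors, library size alone, 2 other filters (at least 1 count; filterByExpr), a replicate block and each library left out. The 9 genes and the lists were chosen with earlier results of these data known. Named were the 9 genes and, in each list, up to 3 called genes per direction with at least 1 CPM and the largest change and the 2 most abundant genes not called; LRRC8C, LRRC8E, TNF and AQP2 were added after their values were seen. Not every gene the rule selects is reported here. The 31-base words of a gene's transcripts were compared with those of other genes. The code was tested on simulated data. For 1 gene, 3 libraries against 3 can give no exact two-sided permutation p below 0.1.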

Additional observations from a re-analysis of the deposited data

How the results depend on the processing

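SGK1, LRRC8A and SLC6A6 kept their direction and their calls under all 12 alternatives (DESeq2, RLE factors, library size alone, 2 other filters, the replicate block and 6 left-out libraries). Of 106 values of the 9 genes under alternatives, 101 kept their side of the threshold, 3 lost the call (NFAT5) and 2 gained it (SLC12A2 and SLC6A12), and no called gene changed direction. SLC6A12 fell under the filterByExpr limit and DESeq2 gave it no adjusted p, so it has no value there. The number of the 9 genes called was 4 with DESeq2, RLE factors, both other filters and the replicate block, 5 with library size alone, and 3 to 5 with a library left out. Over all genes, 4173 were called as reported, 3398 with DESeq2, 4444 with the replicate block and 3114 to 3674 with a library left out. Calls per list with a library left out ranged from 3 to 6 for osmolyte carriers (5 as reported), 3 to 4 for NFAT5 signalling (5), 3 to 5 for swelling channels (5), 2 to 4 for ion cotransporters (4), 1 to 2 for WNK kinases (2), 2 to 4 for SGK kinases (4), 1 to 3 for glucocorticoid responsive genes (2) and 1 to 3 for amino acid response genes (3), where fewer libraries were fitted. Same-numbered replicates of the media did not deviate together (r = 0.0081, -0.011 and 0.056 across 10069 genes, which are not independent). No library correlated best with its own number. With 3 libraries per medium, this cannot exclude a batch shared by same-numbered libraries. As a paired analysis, the replicate block left SGK1 at a log2 fold change of 0.37. Genes with few counts, SLC6A12 among them, are limited by depth.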
